A study of Danio rerio with 3 samples.

Results

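Cyclins and some cyclin-dependent kinases were measured in zebrafish embryos depleted of FoxH1, a forkhead factor that carries Nodal signals to its target genes. The members are the array oligonucleotides (oligos) whose title holds the word cyclin, "cyclin-dependent" or "cell division cycle", or whose symbol column starts with a cyclin A, B, D or E symbol or with cdk and a digit. This rule took 83 spots. The 1 spot titled cyclin G1 was left out, and the remaining 82 spots hold 66 distinct oligos of the 33736 on the array. The rule used no measured value. It left 17 oligos titled as mitotic cyclins A and B, 7 as cyclins D and E, 13 as transcriptional cyclins, 6 as other cyclins, 8 as kinases and 15 as inhibitors, partners and cell division cycle proteins. Of the 66 oligos, 60 gave a usable ratio on all 3 arrays and were tested.

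Whole embryos were taken at 40% epiboly, while cells are spreading over the yolk. They had been injected either with a morpholino to FoxH1 or with a control morpholino. A morpholino is a synthetic antisense molecule that keeps a message from being translated or spliced. The sources used here do not give strain, clutch or dose. RNA of a pool of 50 FoxH1 morphants and RNA of a pool of 50 control morphants were hybridised together on each of 3 arrays, and the series' design text describes these as independent repeats. Nothing else tells whether they were separate clutches, so the p-values measure only the spread between these 3 hybridisations. Cy3 labelled the morphant RNA on arrays 1 and 2, and on array 3 the dyes were swapped. Per the labels' protocol the cDNA was primed with anchored oligo-dT, so the signal comes from RNA with a poly(A) tail; the design text adds an amplification step. In whole-embryo pools, fewer cells with a transcript and less of it per cell cannot be told apart.

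Cyclins are regulatory subunits that bind and activate cyclin-dependent kinases. Cyclins D and E act in G1 and at the entry into S phase, cyclin A in S phase and G2, and cyclin B with the kinase Cdk1 drives mitosis. Early zebrafish embryos divide by rapid cleavages fed by maternal cyclin messages, and the cycle lengthens with gap phases after the midblastula transition. Cyclins C, K, L and T work with other kinases on RNA polymerase II transcription and on splicing, and are not known for cycling levels.

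Values are log2 ratios of morphant over control, normalized by loess, so that 1 is a doubling and 0 is the level of the typical oligo on that array. Which way array 3 runs is not settled by the labels alone. They give the dye of each pool, and the morphant lies in the green column of arrays 1 and 2; on array 3 it lies there if columns follow the sample, and not if they follow the dye. Local background was higher in the red column than in the green at 5.5% (array 1), 5.2% (array 2) and 94.1% (array 3) of spots. Green-over-red ratios of random negative control spots correlated at r = -0.73 between arrays 1 and 2 (their mean) and array 3 (132 spots). Those of Arabidopsis control spots correlated at r = -0.89 (37 spots). By Spearman rank the correlations were -0.45 for random and -0.83 for Arabidopsis spots. Only usable control spots above background in both columns on all 3 arrays were taken. Columns ordered by sample were therefore read, after these values had been seen, and results are also given with the sign of array 3 reversed, called array 3 turned. In the reading used, ratios of the 26219 tested oligos correlated at r = 0.82 between arrays 1 and 2 and at r = -0.35 and -0.46 between each of these and array 3, so the arrays' ratios did not settle the direction either. All of these correlations are across spots or oligos, which share the arrays and their dyes.

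Median oligo intensities were 162 to 467 in the control column and 147 to 384 in the morphant column of the 3 arrays. All 60 tested members were above 2 background SDs in both columns on the 3 arrays, as were 23896 of the 26219 tested oligos. Other than the Operon cdk5 oligo, printed in 17 spots, each member was a single spot per array. Random negative controls had median log2 signals of 8.28 to 9.28, above or near the median of the oligos, so brightness alone does not show that a transcript was present. Arabidopsis control spots were dimmer, with medians of 6.24 to 6.78. Of 16 marker genes fixed for the tissue, cryaa, a lens gene of later stages, was the only one with no oligo above background in both columns, while the later genes myod1 and neurod1 were also above it. The targeted gene foxh1 was at -0.02, 0.07 and -0.13 on arrays 1, 2 and 3 (mean -0.03 ± 0.10, limma adjusted p = 0.961); a morpholino need not lower its target's message, so this does not check the labels. Precision is limited by having 3 arrays, and an exact two-sided sign-flip test on 3 arrays cannot go below p = 0.25.

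The oligos for mitotic cyclins lay higher in the FoxH1 morphants as measured. Averaged over the 3 arrays, the class means of D and E and of transcriptional cyclins lay around 0. Averaged over the 15 tested A and B oligos, the log2 ratio was 0.90 ± 0.40 (SD, n = 3 arrays), or 1.87-fold, with class means of 1.13, 1.14 and 0.45 on arrays 1, 2 and 3. The 7 tested D and E oligos had a mean of 0.06 ± 0.59. Their class means were 0.51, 0.27 and -0.61 on arrays 1, 2 and 3, so opposite signs cancel in that mean. The 12 transcriptional cyclin oligos had a mean of 0.08 ± 0.10. The 6 other cyclin oligos were at 0.09 ± 0.47, the 7 kinase oligos at 0.28 ± 0.07 and the 13 partner oligos at 0.14 ± 0.16. The median A and B oligo was at 0.91, against medians of -0.0046 for D and E, 0.03 for transcriptional cyclins and 0.02 for all tested oligos. With array 3 turned, the class means were 0.61 for A and B, 0.46 for D and E, 0.10 for transcriptional cyclins, 0.36 for other cyclins, 0.04 for kinases and 0.16 for partners. These are descriptions of the classes, with no test over a class.

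No member passed limma's test. The count was 0 of 60 oligos at an adjusted p under 0.05 (lowest 0.282), where 0% of all 26219 tested oligos passed and the unmoderated one-sample test called 0 as well. At an unadjusted p under 0.05 there were 14 members, of which 11 were among the 15 A and B oligos, against 11.4% of all tested oligos. Above 0 on all 3 arrays were 12 of the 15 A and B oligos and 0 lay below 0, against 17% of all tested oligos above and 17.6% below. The 15 A and B oligos were assigned by title to 5 targets, which may stand for fewer genes. They share targets and arrays, so these counts are not counts of separate observations. Among the remaining 45 members, 11 lay above 0 and 5 below 0 on all 3 arrays, or 24.4% and 11.1% of them. With a dye term in the fit, which balances the 2 orientations, 0 members passed and the lowest adjusted p was 0.105, with 0% of all tested oligos passing.

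The size of the mitotic cyclin ratios and their agreement between arrays depend on how array 3 is read. With array 3 turned, the A and B mean was 0.61 and the means of 15 of the 15 oligos stayed above 0. All 15 lay above 0 on arrays 1 and 2, which the turn does not change and which outweigh array 3 in this mean. In that reading 3 of the 15 oligos lay above 0 on all 3 arrays, where 24.8% of all tested oligos did. The 12 oligos that shared a sign in the reading used then had array 3 opposite to arrays 1 and 2. In that setting 4 of 60 members passed the test, all above 0, against 9.52% of all tested oligos. Without array 3, 20 of 60 members passed, 12 of them A and B oligos, where 22.7% of all tested oligos did. Array weights, estimated from the same 3 arrays, called 42 of 60 members against 61.6% of all tested oligos. Among the 6 genes named by zebrafish titles (ccna2, ccnb1, ccnd1, ccne1, cdk5 and cdk8), 0 passed, where 0% of 1014 named genes did. With array 3 turned 1 of the 6 passed (ccne1, at 1.10, against 19.5% of named genes), without array 3 there were 3 (against 43.3%) and with array weights 5 (against 53.6%). The dye-balanced mean of the A and B oligos, in which arrays 1 and 2 together weigh as much as array 3, was 0.79.

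Cyclin B2, a regulatory subunit of the mitotic kinase, was represented by 2 oligos titled after the medaka protein, and in the reading used these had the highest mean ratios of the class. On oligo MWG35H4 the ratio was 1.25, 1.28 and 1.26 on arrays 1, 2 and 3, with a mean of 1.27 ± 0.02 (SD, n = 3), or 2.41-fold. On MWG12O22 it was 1.52, 1.70 and 1.06, with a mean of 1.43 ± 0.33 and a fold of 2.69. Both oligos lay above 0 on every array, and for MWG35H4 the swapped array fell between the other two. Neither passed (limma adjusted p = 0.282 for both, and 0.105 for both with the dye term). In raw intensity, MWG35H4 read 859 in the morphant and 1051 in the control column of array 1, 876 and 1116 on array 2, and 2456 and 379 on array 3. The morphant column had the lower median over all oligos on arrays 1 and 2 and the higher one on array 3, an offset that the loess step removes. With array 3 turned, the means of MWG35H4 and MWG12O22 were 0.42 and 0.72, below those of the oligos CP1P15 (2.65) and MWG19K6 (0.88), so that this ranking was lost.

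Cyclin B1, which brings Cdk1 into mitosis, was covered by 4 oligos of 3 sets. The Operon oligo Oprn2D13 was at 1.06, 0.91 and 0.87 on arrays 1, 2 and 3 (mean 0.94 ± 0.10). The MWG oligo MWG12C24 was at 1.07, 0.95 and 0.69 (0.91 ± 0.20), and MWG28D10, titled cyclin b, at 1.11, 1.07 and 0.43 (0.87 ± 0.38). These 3 oligos gave ratios above 0 on every array and means within a range of 0.073 log2 units. They share the target and the arrays, so they are not replicates. The Compugen oligo CP1P15 behaved otherwise, with 2.91, 2.84 and -2.20. Its mean of 1.18 carried an SD of 2.93, its ratio turned with the dye orientation in the reading used, and its dye-balanced value was 0.34. Averaged over the 4 oligos, ccnb1 was at 0.98 ± 0.89 (limma adjusted p = 0.579 over 1014 named genes, of which 0% passed). Without the Compugen oligo, an omission chosen after seeing the data, the 3-oligo mean was 0.91 ± 0.22, or 1.88-fold. With array 3 turned, the 4-oligo mean was 1.01, and CP1P15 was then the only A or B oligo to pass (2.65, limma adjusted p = 0.00990).

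Oligos titled after cyclin A of goldfish and of gibel carp were also above 0. Cyclin A serves both S phase and entry into mitosis. The 2 gibel carp oligos were at 1.10, 0.99 and 0.70 (MWG28N18, mean 0.93 ± 0.20) and at 1.36, 1.18 and 0.63 (MWG18H22, mean 1.06 ± 0.38) on arrays 1, 2 and 3. Of the 5 tested goldfish oligos, MWG22L23 was at 0.92, 0.98 and 0.70 and MWG5J16 at 0.96, 1.05 and 0.78. MWG11A13 was at 0.80, 0.80 and 0.62, and the dimmest of the class, MWG15F8, at 0.61, 0.73 and 1.14. These 6 oligos lay above 0 on every array. The fifth goldfish oligo, MWG19K6, was at 1.16, 1.35 and -0.14 and so differed in sign on the swapped array. Their means ran from 0.74 to 1.06, with limma adjusted p from 0.295 to 0.558. The titles do not tell which zebrafish gene each oligo targets, and several may share a target, so the 7 oligos may stand for fewer genes.

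The zebrafish cyclin A2 gene, ccna2, had oligo means above 0 in both readings of array 3. Its Operon oligo Oprn3E09 was at 0.62, 0.55 and 0.17 on arrays 1, 2 and 3 (mean 0.45 ± 0.24), and its MWG oligo MWG6K10 at 0.54, 0.63 and -0.03 (0.38 ± 0.36). Arrays 1 and 2 were alike on both oligos and array 3 was lower, with opposite signs between the oligos. Their means were 0.33 and 0.40 with array 3 turned. The gene mean was 0.42 ± 0.30 (limma adjusted p = 0.587), or 0.33 when dye-balanced. The Compugen ccna2 oligo had a poor spot on array 1 and was not tested; it read -0.91 and 0.31 on arrays 2 and 3. The other untested A and B oligo, MWG13D18, had usable quality on array 3 alone, where it read -1.58.

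Grouped by letter, the 9 tested cyclin A oligos had means of 0.90, 0.92 and 0.51 on arrays 1, 2 and 3 (0.78 ± 0.23), and 7 lay above 0 on all 3. The 6 cyclin B oligos had means of 1.49, 1.46 and 0.35 (1.10 ± 0.65), and 5 lay above 0 on all 3. Much of the drop of the B mean on array 3 came with CP1P15, which was at -2.20 there. The other 3 ccnb1 oligos had means of 1.08, 0.98 and 0.66 on arrays 1, 2 and 3. The 2 cyclin B2 oligos had means of 1.39, 1.49 and 1.16. Without CP1P15, the A and B oligos together had means of 1.01, 1.01 and 0.64 (0.89 ± 0.22). The A and B oligos were also among the brighter ones, with a median log2 intensity of 10.8 and a range of 8.21 to 12.2. The median was 8.50 for all tested oligos and 11.0 for the D and E oligos. The part of brightness in the A and B ratios was not tested.

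The D and E cyclins, which act in G1 and at S phase entry, had oligo means from -0.52 to 1.07. Cyclin D1, which drives G1 with Cdk4 and Cdk6, had a mean below 0 on each of its 3 oligos in the reading used. These oligos share the target and the arrays, so they are not replicates. Its Operon oligo Oprn2P04 was at -0.41, -0.54 and -0.60 on arrays 1, 2 and 3 (mean -0.52 ± 0.09, limma adjusted p = 0.412). Its Compugen oligo CP1P5 was at -0.41, -0.03 and -0.74, below 0 on every array. The MWG oligo MWG27M18 was at -0.35, -0.24 and 0.21, and so was above 0 on array 3. The gene mean over the 3 oligos, -0.39, -0.27 and -0.37 by array, was -0.34 ± 0.07 (limma adjusted p = 0.579), and -0.10 with array 3 turned. By array, the 4-oligo ccnb1 mean was 1.54, 1.44 and -0.05, so that it lay opposite to ccnd1 on arrays 1 and 2 and on the same side of 0 on array 3. Without the Compugen oligo of ccnb1, an omission chosen after seeing the data, it was 1.08, 0.98 and 0.66.

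The oligos for cyclin E, which brings Cdk2 into S phase entry, disagreed with each other. MWG6A1 was at 0.06, -0.08 and 0.24 on arrays 1, 2 and 3, and the Operon oligo Oprn2D12 at 0.55, 0.50 and -0.19. The Compugen oligo CP1P3 was at 3.17, 2.90 and -2.86, and in the reading used its sign turned with the dyes as that of the Compugen ccnb1 oligo did. The ccne1 mean of 0.48 ± 1.23 (limma adjusted p = 0.846) fell to 0.18 ± 0.14 without it, and with array 3 turned CP1P3 passed (2.98, limma adjusted p = 0.00636). The dim oligo titled chicken cyclin D2 was at 0.94, -0.65 and -0.31, a spread far wider than its mean of -0.0046.

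The kinase class mean lay slightly above 0. The tested oligos of this class were named Cdk5, Cdk8, Cdk9 and a cell division kinase, and none was named Cdk1, Cdk2, Cdk4 or Cdk6. Cdk5, a kinase known mainly from neurons and activated by proteins other than cyclins, had 3 oligos with means of 0.26, 0.28 and 0.38, and its gene mean was 0.22, 0.03 and 0.67 on arrays 1, 2 and 3 (0.31 ± 0.33, limma adjusted p = 0.703). Its Operon oligo was printed in 17 spots, which show the error of a single spot at low signal. The SD over its usable spots was 0.88, 0.89 and 1.03 on arrays 1, 2 and 3 (16, 15 and 17 spots), and single spots ran from -1.44 to 2.54 on array 3. The standard error of the 17-spot mean there was 0.25, as against an SD of 1.03 for a single spot.

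The kinase oligos had means of 0.19 to 0.38, with SDs over the arrays of 0.15 to 0.67. Cdk8, a kinase of the Mediator complex, was at 0.32, 0.31 and -0.01 on arrays 1, 2 and 3. The 2 oligos titled Cdk9, the kinase that releases paused RNA polymerase II, were at 0.26, 0.18 and 0.65 (MWG28N4) and at 0.59, 0.74 and -0.49 (MWG15H24), so that they disagreed in sign on the swapped array. The tested oligo titled as a cell division kinase (MWG35K16) was at 0.04, 0.18 and 0.34. None of the 7 tested kinase oligos passed (lowest limma adjusted p = 0.578). Above 0 on all 3 arrays were 4 of them, 2 of these for cdk5, against 17% of all tested oligos. The kinase mean of 0.28 was 0.04 with array 3 turned, and 5 of the kinase oligos have the other sign in that reading.

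The transcriptional cyclins gave no common direction. Cyclin T partners Cdk9, cyclin C partners Cdk8, and cyclins K and L partner kinases of transcription and splicing. Of the 12 tested oligos, 4 lay above and 2 below 0 on all 3 arrays, against 17% and 17.6% of all tested oligos. The means of the 12 ran from -0.37 to 0.59. The cyclin T2 title alone spanned this whole range: MWG33P21 was at 0.85, 0.91 and 0.02, Oprn7B18 at 0.03, 0.17 and 0.05, and Oprn9I16 at -0.44, -0.40 and -0.27 on arrays 1, 2 and 3. The cyclin L oligo MWG23I4 was at 0.40, 0.32 and 0.82, while the other two cyclin L oligos had means of 0.00 and -0.10. A cyclin T1 oligo, MWG20C10, was at 0.65, 0.64 and 0.04, and the cyclin K oligo at -0.14, -0.30 and -0.02. The single cyclin C oligo had a mean of -0.09 ± 0.39. Oligos sharing a title thus disagreed with each other as much as different cyclins did, and none passed (lowest limma adjusted p = 0.468).

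Among the other cyclins, no oligo kept a sign on all 3 arrays in the reading used. With array 3 turned, 2 of the 6 lay above and 2 below 0 on all 3, against 24.8% of all tested oligos each way. Cyclin F, G2, I and the cyclin-box carrying protein had oligo means from -0.35 to 0.59. The highest, cyclin G2 on MWG6D24, was at 1.49, 2.06 and -1.77, and passed with array 3 turned (mean 1.77, limma adjusted p = 0.0156). The other cyclin G2 oligo had a mean of -0.13 ± 0.28.

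Among the inhibitors and partners, 2 oligos had means more than 1 log2 unit from 0. Cks2, a small subunit that binds mitotic kinases, was at 0.66, 0.70 and 1.85 on arrays 1, 2 and 3 (mean 1.07 ± 0.68, limma adjusted p = 0.415), above 0 throughout and highest on the swapped array. It was at -0.17 with array 3 turned. The ubiquitin carrier E2-C, which works with the anaphase-promoting complex to mark mitotic cyclins for destruction, was at -1.79, -1.28 and -0.40 (mean -1.16 ± 0.71, limma adjusted p = 0.401) and at -0.89 with array 3 turned. Its title is that of a cyclin-selective enzyme of goldfish, not a cyclin. These were the only 2 partners with an unadjusted p under 0.05, of 13 tested, against 11.4% of all tested oligos. Each was a single spot per array. Their mean log2 intensities were 8.76 (Cks2) and 8.68 (E2-C), against 8.50 for the median tested oligo. The random negative controls had medians of 8.28 to 9.28, and the Arabidopsis controls had medians of 6.24 to 6.78.

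The other partners were nearer to 0. The phosphatase Cdkn3, which acts on cyclin-dependent kinases, was at 0.48, 0.58 and 0.25 on arrays 1, 2 and 3, and CDC91, a subunit of the enzyme that attaches GPI anchors to proteins, at 0.56, 0.06 and 0.32. The p27-like inhibitor, which blocks cyclin-bound kinases, had oligo means of 0.12, 0.30 and 0.81. The brightest of these, Oprn1H24, was at -0.02, 0.04 and 0.35, and the Compugen oligo CP1P11 was at 1.92, 2.76 and -2.24. CP1P11 passed with array 3 turned (mean 2.31, limma adjusted p = 0.0137). The anaphase-promoting subunit CDC27 (-0.24), the chaperone partner CDC37 (-0.18 and -0.24) and the ubiquitin ligase subunit SKP1 (-0.28) had means below 0 with both signs among the arrays. The 2 tested oligos for a cyclin G1-binding protein had means of 0.12 and 0.73.

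In the reading used, of 5 members with a dye part above 1, 3 were Compugen oligos, a set that gave 5 of the tested members. The dye part is the mean of arrays 1 and 2 minus array 3, divided by 2, and it was 2.54 for the ccnb1 oligo CP1P15, 2.95 for the ccne1 oligo CP1P3 and 2.29 for the p27-like oligo CP1P11. The MWG oligos for cyclin G2 (1.77) and a cyclin G1-binding protein (1.13) were the other two. The median size of the dye part over all tested oligos was 0.34. The shares of all tested oligos and of all Compugen oligos above 1 were not computed, so these members do not describe the Compugen set. Dye-balanced, these 5 oligos were at 0.34, 0.09, 0.05, 0.00 and 0.35 in this order. This split also rests on the reading of array 3, since turning it exchanges the dye part and the dye-balanced value. Then 3 members had a dye part above 1, the cyclin B2 oligos MWG12O22 (1.34) and MWG35H4 (1.27) and the Cks2 oligo (1.27), and 0 of them were Compugen oligos.

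From a fixed list of 69 further cell cycle symbols, 5 genes could be named and tested, none of them from a member oligo, and 0 passed. Some listed symbols, such as cks2 and skp1, name proteins that the titles of member oligos also carry. The ribonucleotide reductase gene rrm1 was at 0.61, 0.65 and 0.12 on arrays 1, 2 and 3 and was the only 1 above 0 on all 3, where 12.3% of the 1014 named genes were. The replication licensing gene mcm2 was at -0.04, -0.18 and -0.33 and was the only 1 below 0 on all 3, where 18.4% of named genes were. The list's median was -0.05, against 0.02 for all named genes.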

How the data were processed

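The tables hold, per the file headers, mean spot intensities in a red and a green column, background intensities with SDs, a calibrated ratio and a quality fraction. The authors had subtracted the background from the spot intensities before deposit, and the deposited ratio is red over green divided by 1 constant per array. Values of the deposited log2 matrix were minus log2 of this ratio (tolerance 0.01). The sources used here do not name the image software.

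Spots of quality 0 were left out, each array was normalized by loess (span 0.3) on green over red, and repeated spots of an oligo were averaged. Tested oligos were those with a usable ratio on 3 of 3 arrays that exceeded 2 background SDs, in whichever column, on 2 or more arrays. Limma 3.58.1 (R 4.3.3; lmFit, eBayes) was fitted over all 26219 oligos and over 1014 genes named by accession, symbol or title, with Benjamini-Hochberg adjustment. Symbols came through a RefSeq table for GRCz12tu (1306 of 1379 RefSeq oligos found). UniGene clusters were not used for names, since the cluster of the cyclin B1 oligo also held a vitellogenin title. The fit was also run on simulated data whose noise was set by the difference between arrays 1 and 2. Array 3 entered these data only through a dye effect, in part of the runs. Their outcome is not given here, and no result rests on it. Values on every array are given for all tested A and B oligos and in the other classes for up to 6 oligos of 1 sign by smallest p; all D and E cyclins and kinases may be named, and members given beyond these were chosen after their values were seen. Members, classes and lists were chosen with earlier results of these data known. No sequences are shown, since the files used here hold none.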

Additional observations from a re-analysis of the deposited data

How the results depend on the processing

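With 1 of 3 arrays swapped, dye effects do not cancel in the plain mean. The 0 called members became 4 with array 3 turned, where 9.52% of all tested oligos were called. With array weights they became 42, where 61.6% were called, and they ranged from 0 to 20 when 1 array was left out. The 20 came without array 3 (replicate 3), where 22.7% of all tested oligos and 12 of 15 A and B oligos passed; both remaining arrays have the same dye orientation. Called member genes went from 0 to 1 with array 3 turned, where 19.5% of named genes passed. With array weights there were 5, where 53.6% passed. When 1 array was left out there were 0 to 3, and the 3 came without array 3, where 43.3% passed. Members above 0 on all arrays numbered 23, but 14 with array 3 turned, where 24.8% of all tested oligos lay above 0. They numbered 24 to 37 when 1 array was left out. The 24 came without replicate 1, where 19.7% of all tested oligos lay above 0 on both arrays. Without replicate 2 there were 27, where 23.1% did. Members below 0 numbered 5, and 7 with array 3 turned, where 24.8% of all tested oligos lay below 0. They numbered 7 to 12 when 1 array was left out. The 7 came without replicate 1, where 20.2% of all tested oligos lay below 0 on both arrays. Without replicate 2 there were 9, where 22.1% did. The 37 and 12 came without array 3, where 41.8% of all tested oligos lay above and 42.3% below 0 on both arrays, against 17.0% and 17.6% on all 3. The kinase mean moved to 0.041 with array 3 turned, and the partner mean to 0.41 with zebrafish titles only, which leaves the p27-like oligos. The A and B mean was 0.79 to 1.13 when 1 array was left out, 0.91 over titles in place of oligos and 0.89 without the Compugen oligo, an alternative chosen after seeing the data. The D and E mean was -0.11 with a dye term, -0.17 to 0.39 when 1 array was left out and -0.057 without the Compugen oligos.

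Of 546 values of 39 named oligos under the alternatives, 20 had the other sign and 49 kept the sign and passed the threshold. Changing the filter on dim oligos or taking the unmoderated test kept the same ratios, so no sign could change there. The 49 came only with array 3 turned, without array 3 or with array weights. In these settings 9.52%, 22.7% and 61.6% of all tested oligos passed. With array 3 turned, the other sign was found for cdk5 (CP2N14 -0.26, MWG16F20 -0.063, Oprn1A08 -0.098), ccnd1 on CP1P5 (0.098) and the cell division kinase (-0.038). In that setting it was also found for CDK9 on MWG28N4 (-0.069), cyclin D2 (0.20), ccne1 on MWG6A1 (-0.087), cyclin L on MWG23I4 (-0.031) and CKS2 (-0.17). Cyclin D2 was also above 0 with median centring (0.22), print-tip loess (0.070), deposited values (0.21), normexp (0.0052) and array weights (0.69), and at -0.48 to 0.32 when 1 array was left out. MWG6A1 was also below 0 with median centring (-0.024) and deposited values (-0.031), and at -0.0098 to 0.15 when 1 array was left out. The causes were not tested. Each ratio already pairs 1 morphant with 1 control pool, so the fit on these ratios is paired and no further pairing was possible. Dye term, array weights and the unmoderated test give no count of signs of their own.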

Other observations

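Oligos that the title rule did not take, picked by their titles after their values were seen, carried values for the same or related proteins. A Compugen oligo whose title names a frog cyclin B2 entry (CP13G23) was at 1.49, 1.48 and 0.97 on arrays 1, 2 and 3, with a mean of 1.31 ± 0.30 (SD, n = 3, limma adjusted p = 0.287). It was above 0 on every array in the reading used, as the 2 MWG cyclin B2 oligos were. A second oligo with a Cks2 title (CP34L5) was at 0.47, 0.28 and 0.46, a mean of 0.40 against 1.07 for the Operon oligo. An oligo titled after human cyclin D2 (Oprn4F15) was at -0.20, -0.25 and -0.17. Oligos with Cdk7 titles had means of -0.19 (MWG35A5), -0.07 (CP39A20) and -0.01 (Oprn7L19). Those with Cdk8 titles had means of 0.25 (MWG37E5) and 0.32 (MWG36G4), and an oligo with a Cdk9 title (CP16H14) had a mean of 0.42. An oligo with a Cks1 title (CP39J8) was at -0.76, -2.31 and 4.24.

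Cdc2 is the older name of Cdk1, the kinase that cyclins A and B activate. Its goldfish-titled oligo (MWG13O5) was at 0.67, 0.61 and 0.30 on arrays 1, 2 and 3 (mean 0.53 ± 0.20, limma adjusted p = 0.430), and the human-titled oligo (Oprn8M22) at 0.46, 0.25 and -0.03. Cdc25 is the phosphatase that removes the inhibitory phosphates from that kinase. In the reading used its 3 oligos lay below 0 on every array, where 17.6% of all tested oligos did. These 3 oligos share the title and the arrays, so they are not replicates. They were at -0.38, -0.33 and -0.12 (CP1P17), -0.51, -0.49 and -0.13 (MWG23E17) and -0.48, -0.44 and -0.13 (Oprn3N15), with limma adjusted p from 0.553 to 0.618. With array 3 turned, that array lies opposite to arrays 1 and 2 on each of them. None of these oligos passed, and the cyclin G1 oligo left out by the rule had a mean of 0.14 ± 0.27.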
